A study of Rattus norvegicus with 12 samples.

Results

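The data describe 10 genes of the extracellular matrix, taken from an array study of rat heart. They are the small leucine-rich proteoglycans biglycan (Bgn), decorin (Dcn), lumican (Lum) and fibromodulin (Fmod), the thrombospondin Comp, and the elastic fibre and microfibril genes Fbn1, Eln, Mfap4, Mfap5 and Ltbp2. A probe set was taken as a member when the platform annotation gave it a single gene symbol and that symbol was 1 of these 10, which gave 12 probe sets for 10 of the 14217 genes with a single symbol, out of 31042 probe sets in all. Fbn1 and Eln had 2 probe sets each and the others 1; for these 2 genes the brighter probe set is given first and the other beside it. All 12 probe sets lay above the filter on low levels, a mean log2 level over 5.20, but Comp did so with a mean of 5.22, through 2 arrays.

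The arrays were made from the left ventricular free wall of male Sprague-Dawley rats, in the remote zone, the myocardium away from an infarct. At 8 weeks of age all rats received a single intraperitoneal injection, of streptozotocin at 65 mg/kg in the diabetic groups and of citrate buffer in the non-diabetic groups. Streptozotocin kills pancreatic beta cells and so removes the source of insulin. After 10 weeks without blood sugar control, the left anterior descending coronary artery was ligated or a sham operation was done. Ligated rats were killed 1, 7, 14, 28 or 56 days later. The labelled age was 18 weeks for sham and day 1, 19 for day 7, 20 for day 14 and 22 for day 28, and on day 56 it was 26 weeks for the diabetic but 22 for the non-diabetic array. The RNA of 3 rats was pooled for each array, with 1 diabetic and 1 non-diabetic array in sham and on each of the 5 days. The labels give no interval between sham operation and death.

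The small leucine-rich proteoglycans are secreted core proteins that sit on collagen fibrils, set fibril spacing and thickness, and carry glycosaminoglycan chains. Elastic fibres are built by laying down elastin on a scaffold of fibrillin microfibrils, to which microfibril-associated glycoproteins and latent TGF-beta binding proteins attach. In the heart these genes are known as products of fibroblasts and vascular mural cells, and several are known to be raised in scars and in fibrosis.

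Levels are log2 of the deposited intensity plus 16, so differences of dim genes are understated, and levels of different genes cannot be compared. With 1 array per condition and time point, each test's error rests on the spread of the diabetic minus non-diabetic difference over the 6 pairs. In limma that spread is drawn toward a trend over all probe sets. For all 10 genes this made the standard error smaller than their own 6 pairs give. The error holds no variation between single rats. The median probe set intensity was 28.8 to 34.7 per array. The 4 arrays of days 1 and 7 stood apart, with a beta-actin 3' minus 5' difference of 0.97 to 0.99 on the log2 scale against 0.37 to 0.59 on the 8 others, and comparisons of these days with sham run along that split. The 6 of 7 cardiomyocyte markers that were measured all read above an intensity of 16 on every array. In pooled tissue RNA, more cells of a type and more RNA per cell cannot be told apart.

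Bgn, a proteoglycan with dermatan or chondroitin sulphate chains, was lowest on day 1 and high on days 7 and 14. Values are given with the non-diabetic array first. Bgn read 9.67 and 9.41 in sham, 8.57 and 8.71 on day 1, 11.03 and 11.01 on day 7, 10.59 and 11.13 on day 14, and 9.30 and 10.43 on day 56. In the day 28 pair it read 11.20 and 9.43. Both day 7 arrays and both day 14 arrays lay above both sham arrays, whereas on day 28 the non-diabetic array was the highest of all 12 and the diabetic array lay at the level of sham.

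Lum, which binds collagen and limits fibril thickness, followed a similar course. It read 10.21 and 9.76 in sham, 8.29 and 8.08 on day 1, 11.22 and 11.11 on day 7, 9.90 and 11.15 on day 14, and 9.14 and 10.01 on day 56. In the day 28 pair the values were 10.94 and 9.51. Both day 1 arrays were lower than all 10 other arrays, and on day 14 the 2 conditions were 1.25 apart.

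Dcn, a proteoglycan that binds collagen and TGF-beta, had the narrowest range of the 10 over the diabetic arrays. As deposited intensities it read 4078 and 3271 in sham, 3548 and 3028 on day 1, 4073 and 3933 on day 7, 1765 and 3007 on day 14, and 2113 and 3034 on day 56. The day 28 pair read 3333 and 3335, a log2 level of 11.71 on both arrays. Its log2 range over the diabetic arrays was 0.39, and over the non-diabetic arrays 1.20, with the lowest values on days 14 and 56.

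Fmod, a relative of lumican, had a narrow range as well. Its levels were 7.14 and 6.96 in sham, 6.67 and 6.62 on day 1, 6.73 and 6.71 on day 7, 7.24 and 7.07 on day 14, and 6.72 and 7.38 on day 56. The day 28 pair read 7.34 and 6.33, the diabetic value being the lowest of the 12. The arrays of days 1 and 7 lay below both sham arrays.

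Comp, the pentameric thrombospondin of cartilage and tendon that also binds fibrillar collagen, was near the floor on most arrays. Its deposited intensity was 9.1 to 27.5 on 10 arrays, 97.4 on the non-diabetic day 28 array and 97.8 on the diabetic day 56 array. On the log2 scale this is 4.65 to 5.44 against 6.83 on each of the 2 arrays. Those 2 arrays share neither the condition nor the day, and Comp passed the filter only through them.

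**Figure D1:**
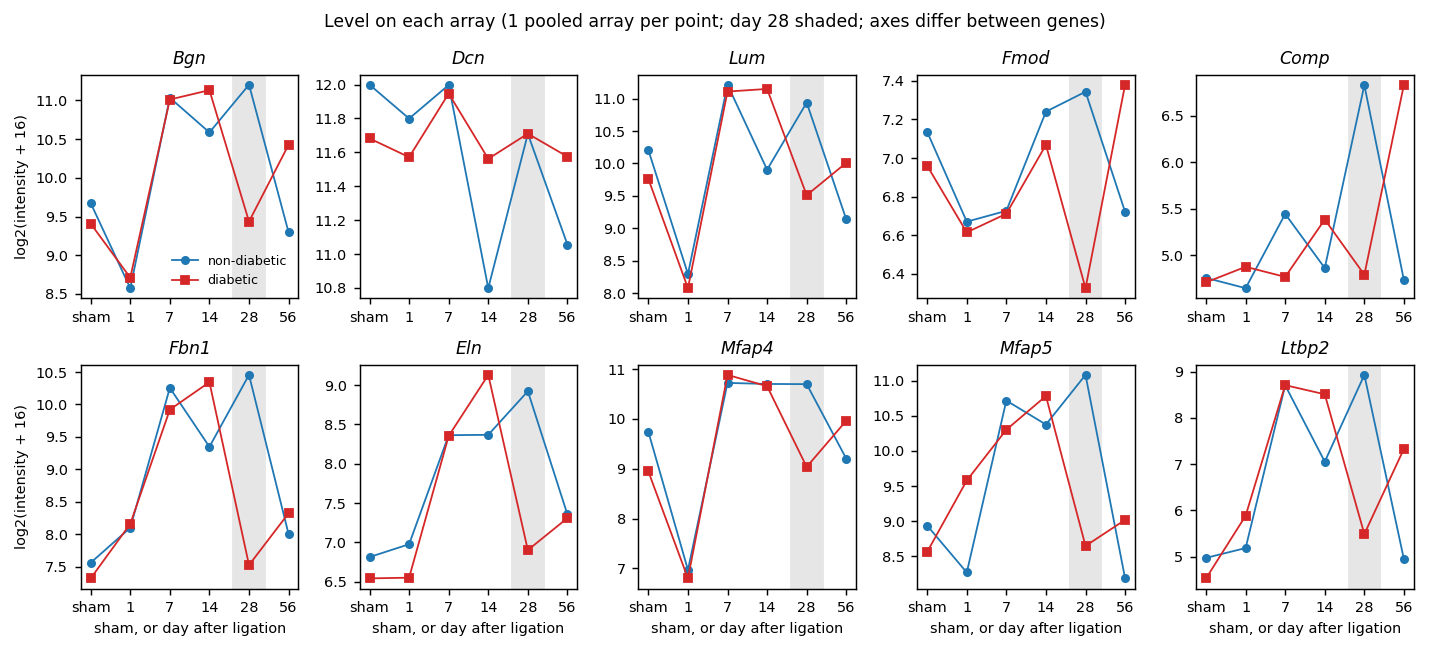
Level of each of the 10 genes, as log2(intensity + 16), in sham and on days 1 to 56 after ligation, with 1 point per pooled array, non-diabetic in blue, diabetic in red and the day 28 pair shaded; vertical axes differ between genes. Bgn, Lum, Fbn1, Eln, Mfap4, Mfap5 and Ltbp2 are high on day 7 in both conditions and part on day 28, when the non-diabetic array is the higher, while Dcn reads 11.71 in both arrays of that day.

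Fbn1 encodes fibrillin-1, the main protein of microfibrils. It read 7.56 and 7.32 in sham, 8.10 and 8.16 on day 1, 10.26 and 9.92 on day 7, 9.35 and 10.34 on day 14, and 8.00 and 8.32 on day 56. The day 28 pair read 10.46 and 7.52. Every array of days 7 and 14 lay above every array of sham, day 1 and day 56, and the day 28 pair spanned nearly the whole range of the gene.

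Ltbp2, a member of the latent TGF-beta binding protein family that binds fibrillin rather than TGF-beta itself, had the widest range. It read 4.97 and 4.53 in sham, 5.18 and 5.88 on day 1, 8.70 and 8.71 on day 7, 7.05 and 8.51 on day 14, and 4.94 and 7.33 on day 56. In the day 28 pair the values were 8.93 and 5.49. The sham intensities were 15.4 and 7.1, close to the floor, and those of day 7 were 400.5 and 401.6.

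Eln encodes tropoelastin, the soluble precursor of elastin. Its levels were 6.81 and 6.54 in sham, 6.98 and 6.55 on day 1, 8.36 and 8.35 on day 7, 8.37 and 9.13 on day 14, and 7.35 and 7.31 on day 56. The day 28 pair read 8.92 and 6.90. The dimmer Eln probe set read 4.65 and 4.73 in sham and at most 6.04, and its day 28 values differed by only -0.12.

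Mfap5, a small glycoprotein of microfibrils, read 8.94 and 8.56 in sham, 8.27 and 9.58 on day 1, 10.72 and 10.30 on day 7, 10.38 and 10.78 on day 14, and 8.19 and 9.02 on day 56. Its day 28 pair read 11.08 and 8.65. The conditions were 1.31 apart on day 1, when the diabetic array was the higher.

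Mfap4, a fibrinogen-related protein that binds elastic fibres and collagen, was the member with the deepest fall on day 1. It read 9.74 and 8.94 in sham, 6.97 and 6.80 on day 1, 10.72 and 10.88 on day 7, 10.70 and 10.66 on day 14, and 9.20 and 9.96 on day 56. In the day 28 pair it read 10.70 and 9.04. Both day 1 arrays lay far below both sham arrays, and the 4 arrays of days 7 and 14 lay close together above sham.

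For 6 of the 10 genes the RefSeq table of rat promoters on GRCr8 held a window, and for Bgn, Dcn, Eln and Mfap4 it did not. The 250 bases before the transcription start are shown for the 2 genes whose day 7 change passed the test, Ltbp2 and Fbn1, and for Comp, which stood out on only 2 arrays. Ltbp2 lies on the minus strand at chr6:110257299-110257548, Fbn1 on the minus strand at chr3:133203391-133203640, and Comp on the minus strand at chr16:19089549-19089798. Each is printed 5′ to 3′ on the strand of its gene, and capitals mark GGGCGG, the GC box, in Ltbp2, TGTCTG, which is CAGACA on the other strand, in Fbn1, and CAGACA in Comp.
Ltbp2: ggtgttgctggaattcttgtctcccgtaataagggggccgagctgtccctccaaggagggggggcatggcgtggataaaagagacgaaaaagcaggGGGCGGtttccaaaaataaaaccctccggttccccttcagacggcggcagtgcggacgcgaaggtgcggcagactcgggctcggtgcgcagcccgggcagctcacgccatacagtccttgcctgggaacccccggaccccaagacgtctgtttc
Fbn1: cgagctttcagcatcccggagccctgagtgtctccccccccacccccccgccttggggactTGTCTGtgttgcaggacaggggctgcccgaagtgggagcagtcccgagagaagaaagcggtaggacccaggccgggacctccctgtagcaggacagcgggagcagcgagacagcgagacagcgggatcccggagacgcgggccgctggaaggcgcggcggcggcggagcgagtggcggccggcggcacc
Comp: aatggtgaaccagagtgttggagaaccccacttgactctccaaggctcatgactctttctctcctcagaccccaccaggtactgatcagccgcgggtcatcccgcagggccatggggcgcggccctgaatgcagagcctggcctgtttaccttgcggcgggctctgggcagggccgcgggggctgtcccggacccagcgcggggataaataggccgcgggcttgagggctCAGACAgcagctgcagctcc
The G and C content of these windows was 61.6%, 71.2% and 64.8%, against a median of 51.2% over all 33469 windows of the table.

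The windows of the 6 genes shared no motif among those searched on both strands. CAGACA, the SMAD element, stood in 2, those of Comp, 20 to 15 bases before the start, and Fbn1, 189 to 184 bases before it, and in 17.2% of all windows. GGGCGG stood in 2, those of Fmod and Ltbp2, against 30.5% of all windows. CANNTG, the E-box, stood in 3, those of Comp, Lum and Mfap5, against 65.5%, and it is left in lower case above. None of the 6 windows held the other motifs. The TATA box, searched as TATAAA, stood in 12.9% of all windows, the AP-1 element, as TGANTCA, in 6.34%, the TEAD element, as GGAATG, in 12.1%, and the SMAD palindrome GTCTAGAC in 0.173%. No motif searched overlapped another in the printed windows. In the RefSeq table Dcn, Lum, Kera and Epyc are neighbours on chromosome 7, and Optc, Prelp and Fmod on chromosome 13, whereas Bgn lies on chromosome X. The neighbours Dcn and Lum had a Pearson r of 0.28 over the 12 arrays, against 0.94 for Bgn and Lum.

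The comparison of each day with sham asks how these genes changed in remote myocardium after ligation, over both conditions. On day 7, Ltbp2 and Fbn1 rose. Ltbp2 was higher by 3.95 ± 0.97 (SE, 2 arrays against 2), 15.5-fold, with a limma p adjusted by Benjamini-Hochberg of 0.034, and Fbn1 by 2.65 ± 0.67, 6.28-fold, with an adjusted p of 0.038. The other Fbn1 probe set had a change of 2.93 ± 0.61 with an adjusted p of 0.018, and the dimmer Eln probe set one of 0.94 ± 0.21 with 0.023. So 2 of 10 genes were called higher and 0 lower, where 4.67% of all 18625 probe sets were called higher and 2.97% lower. The size for Ltbp2 depends on the offset of the log scale, and was 5.13 with an offset of 1 and 2.63 with an offset of 64.

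The other members did not pass on day 7. Mfap5 had a change of 1.76 ± 0.66, Eln of 1.68 ± 0.49, Bgn of 1.48 ± 0.50, Mfap4 of 1.46 ± 0.45 and Lum of 1.18 ± 0.50, with adjusted p-values from 0.059 for Eln to 0.165 for Lum. For each of these 5 genes both day 7 arrays lay above both sham arrays. Comp had 0.37, Dcn 0.13 and Fmod -0.33, with standard errors of 0.66, 0.26 and 0.33. The median over the 10 genes was 1.47, against 0.16 over all 10623 genes tested, and 7 of 10 had an unadjusted p under 0.05, against 25.5% of all probe sets.

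These day 7 calls rest on few arrays. Leaving out either sham array or either day 7 array left 0 of 10 past the threshold, and leaving out either day 1 or either day 56 array left Ltbp2 alone. Without the day 28 pair, an alternative added after the data were seen, 7 of 10 passed as higher, namely Bgn, Lum, Fbn1, Eln, Mfap4, Mfap5 and Ltbp2, where 10.2% of all probe sets did, and 7 also passed without either array of that pair. The sizes are the same in that fit, and the standard error of Ltbp2 is 0.51 in place of 0.97 and that of Fbn1 0.31 in place of 0.67. In the pair left out 9 of 10 genes were lower in the diabetic array by over 1, where 6.46% of all probe sets were. Leaving it out takes that difference out of the error of these genes. The counts of that fit, here and in the comparisons below, are therefore a description only.

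Macrophage markers lay above sham on day 7 in all 6 of 6 measured, with a median change of 0.77, but none passed limma's test, and their summed intensity was 6048 and 5617 against 2835 and 2617 in sham. Of 7 fibroblast markers 4 were above sham, with a median of 0.35, and 1 was called higher, Thy1 at 1.87 with a limma adjusted p of 0.028, named after its value was seen. Pi16 had 2.22 and Gsn -1.03 without passing. The summed intensity of the 7 was 4056 and 3631 against 5948 and 4989, with Gsn the brightest of them. Their mean log2 level was 8.40 and 8.19 against 7.86 and 7.71. Tendon and valve markers, of which 3 of 5 were measured, had 1 above sham, and cartilage markers, with 4 of 6 measured, had 1, at sums of 70.3 and 77.1 against 118 and 94.7. Their part in the result was not tested.

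On day 1, Mfap4 fell by 2.46 ± 0.45 (SE, 2 arrays against 2), with a limma adjusted p of 0.0098. Lum had a change of -1.80 ± 0.50 and an adjusted p of 0.051, just outside the threshold, and Bgn one of -0.90 ± 0.50 with 0.287. The other 7 lay between -0.40 for Fmod and 0.78 for Ltbp2. In all, 1 of 10 was called lower and 0 higher, where 3.27% of all probe sets were called lower and 4.2% higher. The call for Mfap4 was lost without the non-diabetic sham, the diabetic sham or the diabetic day 1 array, where the adjusted p was 0.097, 0.051 and 0.082. With the day 28 pair left out 2 of 10 passed as lower, Mfap4 and Lum, with 5.97% of all probe sets.

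All 7 fibroblast markers also lay below sham on day 1, with a median change of -0.65 and 1 called lower, Gsn, gelsolin, at -1.45, named after its value was seen, and their sum was 3417 and 1678 against 5948 and 4989. Neutrophil markers, of which 3 of 4 were measured, all lay above sham, with sums of 801 and 1871 against 297 and 186. Macrophage markers summed to 4536 and 5513 against 2835 and 2617. The part of these cell types in the fall of Mfap4 was not tested.

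On day 14 no member passed. Ltbp2 had a change of 3.03 ± 0.97, Fbn1 of 2.41 ± 0.67, Eln of 2.07 ± 0.49, Mfap5 of 1.83 ± 0.66, Mfap4 of 1.34 ± 0.45 and Bgn of 1.32 ± 0.50, each with a limma adjusted p of 0.402. Dcn had a change of -0.66 ± 0.26, Lum of 0.54 ± 0.50, Comp of 0.39 ± 0.66 and Fmod of 0.11 ± 0.33. With limma 0 of 10 passed while 7 had an unadjusted p under 0.05, and 0% of all probe sets passed as higher, with 11.7% under the unadjusted threshold. Without the day 28 pair, a fit chosen after the data were seen, Fbn1, Eln and Ltbp2 passed as higher, 3 of 10. Of all probe sets 0.209% did. In the pair left out 9 of 10 genes were lower in the diabetic array by over 1, so this count is a description only.

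On day 28 the mean of the pair hides unlike arrays. The fitted changes were 2.46 ± 0.97 for Ltbp2, 1.55 ± 0.67 for Fbn1 and 1.24 ± 0.49 for Eln, and with limma 0 of 10 passed, with 3 under an unadjusted p of 0.05, and 0% of all probe sets passed as higher, with 3.62% under the unadjusted threshold. On day 56 the changes ran from -0.53 for Dcn to 1.39 for Ltbp2, and with limma 0 of 10 passed, none of them under an unadjusted p of 0.05, with 0% of all probe sets called higher and 16.4% under the unadjusted threshold. The dimmer Eln probe set, highest on day 56 in both conditions, had a change of 1.27 ± 0.21 and a limma adjusted p of 0.088 on that day. The median over the 10 genes was 0.28 on day 56, against -0.19 over all genes tested. For the mean of the 5 days against sham, Ltbp2 had 2.32 ± 0.75, Fbn1 1.60 ± 0.52 and Eln 1.15 ± 0.38. With limma 0 of 10 passed, with 3 under an unadjusted p of 0.05, where 0.0966% of all probe sets were called higher and 10.9% were under the unadjusted threshold. In the fit without the day 28 pair the mean is that of the other days only, at 2.29 for Ltbp2. Those 3 genes passed there, 3 of 10, where 2.59% of all probe sets did. The 5 contrasts share the 2 sham arrays.

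**Figure D2:**
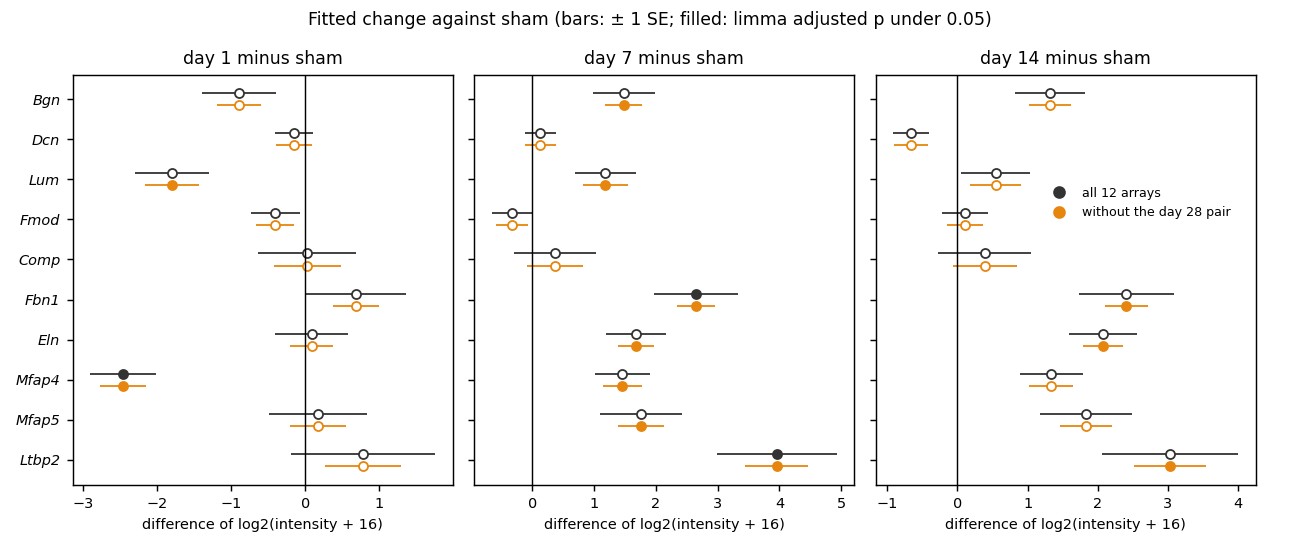
Fitted change against sham of each gene on days 1, 7 and 14, as a difference of log2(intensity + 16) with bars of 1 SE, from all 12 arrays in black and without the day 28 pair in orange; filled points had a limma adjusted p under 0.05. Ltbp2 and Fbn1 are filled on day 7 in both fits, and leaving out the day 28 pair moves no point and shortens the bars of genes such as Ltbp2, from 0.97 to 0.51.

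The slope on log2 of the day asks whether a gene rose or fell steadily from day 1 to day 56. Mfap4 rose by 0.47 ± 0.07 per doubling of the day (SE, 10 ligated arrays), with a limma adjusted p of 0.0014, and Lum by 0.25 ± 0.08, with 0.035. Bgn had a slope of 0.22 ± 0.08 and an adjusted p of 0.056, and the dimmer Eln probe set one of 0.10 ± 0.03 with 0.048. Hence 2 of 10 genes were called higher and 0 lower, where 10.1% of all probe sets were called higher and 18.4% lower. Days 1 and 7 form the low end of this slope, so it also runs in part along the beta-actin 3' minus 5' split. The part of RNA quality in these slopes was not tested. For both genes the lowest level is that of day 1, and their levels fall again between days 7 and 56, so the course is not a straight line. Mfap4 passed whichever of the 12 arrays was left out. Lum did not pass without either array of day 1, of day 7 or of day 56, with slopes of 0.19 to 0.32. When the day 28 pair was left out 4 of 10 passed, Bgn, Lum, Eln and Mfap4, where 11.7% of all probe sets did.

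The comparison of diabetic with non-diabetic arrays over the 6 time points gave no call among the 10 genes. Differences ran from -0.36 ± 0.39 (SE, n = 6 pairs) for Fbn1 to 0.11 ± 0.15 for Dcn, and limma's adjusted p-values from 0.709 to 0.993. With limma 0 of 10 passed in either direction, and 0 had an unadjusted p under 0.05, where 0.15% of all probe sets were called higher, 0.226% lower, and 10.6% had an unadjusted p under 0.05. The 95% interval of the model was -0.21 to 0.44 for Dcn and -1.12 to 1.35 for Ltbp2, narrower for Dcn than for Ltbp2. It reflects the spread over time points of single pools and holds no variation between rats. The single pairs of Dcn ran from -0.32 in sham to 0.76 on day 14. Without the day 28 pair 9 of 10 differences were above 0, from 0.002 for Eln to 0.82 ± 0.32 for Ltbp2, and that of Mfap4 was -0.02. None passed there, with the smallest adjusted p at 0.409, for Ltbp2, and 1 of 10 under an unadjusted p of 0.05. Whether the difference depended on ligation or on log2 of the day was tested by interaction terms in limma. Neither gave a call, with 0 of 10 and 0% of all probe sets past the threshold for each, and 0 of 10 under an unadjusted p of 0.05, against 0.671% and 4.5% of all probe sets.

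The day 28 pair held the largest median difference of the 6 pairs. In it 9 of 10 genes were lower in the diabetic array by over 1 on the log2 scale, where 6.46% of all probe sets were. A further 5.42% of all probe sets were higher by over 1. Over all probe sets the SD of the difference was 0.67 in this pair, against 0.30 to 0.55 in the others. Comp passed the filter only through its 2 high arrays, 1 of them in this pair, and without it the count was 8 of 9. The median difference of the 10 was -1.89. These are single arrays, so no test applies to the difference. Ltbp2 read 8.93 without and 5.49 with diabetes, a difference of -3.44, and Fbn1 10.46 and 7.52, a difference of -2.93. The 2 genes were thus 10.9-fold and 7.64-fold higher in the non-diabetic array. Differences were -2.43 for Mfap5, -2.03 for Comp, -2.02 for Eln, -1.77 for Bgn, -1.66 for Mfap4, -1.43 for Lum and -1.02 for Fmod, against 0.001 for Dcn. The other Fbn1 probe set gave -2.49, but the dimmer Eln probe set -0.12.

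Against the sham array of the same condition, the day 28 value was lower in the diabetic than in the non-diabetic array for all of the 10 genes but Dcn. In the diabetic array the change was 0.21 for Fbn1, 0.36 for Eln, 0.08 for Mfap5, 0.09 for Mfap4 and 0.03 for Bgn, with 0.96 for Ltbp2. The same genes stood in the non-diabetic array at 2.90, 2.11, 2.14, 0.96, 1.53 and 3.96. Comp stood at 0.08 in the diabetic and 2.07 in the other array, and Lum at -0.25 and 0.73. Fmod stood at -0.63 and 0.21, and Dcn at 0.03 and -0.29. Between days 14 and 28 the diabetic level went from 10.34 to 7.52 for Fbn1 and from 8.51 to 5.49 for Ltbp2, whereas the non-diabetic level went from 9.35 to 10.46 and from 7.05 to 8.93.

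Several marker lists were also lower in the diabetic array of this pair. All 6 macrophage markers were lower in the diabetic day 28 array, with a median difference of -1.26 and sums of 2104 against 5093. All 3 measured neutrophil markers were lower, with a median of -1.95 and sums of 164 against 1113. Of 7 fibroblast markers 5 were lower, with a median of -0.45 and a mean log2 level of 7.81 against 8.32. Their sums were 5632 and 5633, but Gsn is the brightest of the 7, at a mean log2 of 11.58 over the arrays. The others have at most 8.75. Cardiomyocyte markers had a median of 0.04, with 2 of 6 lower. Smooth muscle markers had 4 of 6 lower, with a median of -0.53 and sums of 4124 and 4468. Endothelial markers had 4 of 5 lower, with a median of -0.46, and epicardial and mesothelial markers 4 of 5, with -0.54. The beta-actin 3' minus 5' difference was 0.38 in the diabetic and 0.59 in the non-diabetic day 28 array, a gap of 0.21, where the arrays of each of the 5 other pairs were at most 0.044 apart. The part of these cell types and of RNA quality in the day 28 difference was not tested, and a difference between 2 pools of 3 rats cannot be told apart from an effect of diabetes on that day.

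**Figure D3:**
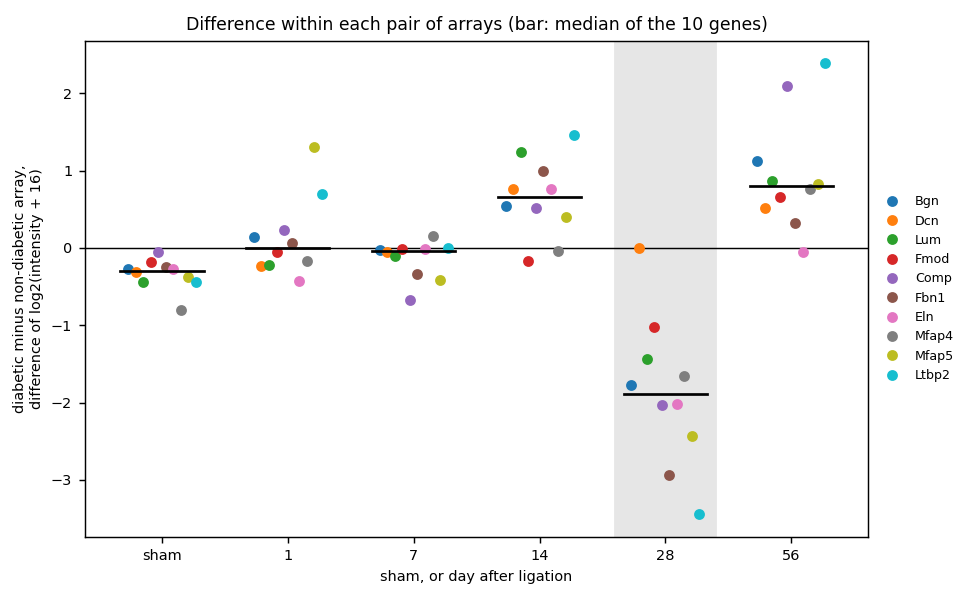
Diabetic minus non-diabetic difference of log2(intensity + 16) within the pair of arrays of each time point, with 1 point per gene, a bar at the median of the 10 genes and the day 28 pair shaded. The medians are -0.29 in sham, -1.89 on day 28 and 0.80 on day 56, and Dcn alone stays at 0.001 on day 28.

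The other pairs had smaller median differences, and their direction changed between time points. In the sham pair all 10 genes were lower in the diabetic array, by -0.05 for Comp to -0.80 for Mfap4, with a median of -0.29, where 54.3% of all probe sets were lower. These are the brighter probe sets, and the dimmer Eln probe set was higher there, by 0.08. On day 1 they ran from -0.43 for Eln to 1.31 for Mfap5, the only 1 of 10 higher by over 1, where 0.891% of all probe sets were, and on day 7 from -0.68 for Comp to 0.16 for Mfap4. On day 14, 8 of 10 were higher in the diabetic array, with a median of 0.65, where 56.1% of all probe sets were higher. Lum and Ltbp2, 2 of 10, were higher by over 1, at 1.25 and 1.46, where 6.06% of all probe sets were. Fbn1 had 1.00 on day 14 by its brighter probe set and 1.11 by its other. On day 56, 9 of 10 were higher in the diabetic array, with a median of 0.80, where 69.0% of all probe sets were higher. Ltbp2, Comp and Bgn, 3 of 10, were higher by over 1, at 2.39, 2.10 and 1.13, where 2.45% of all probe sets were, and without Comp, whose other high array lies in this pair, the count was 2 of 9. In the day 56 pair all 7 fibroblast markers and all 6 macrophage markers were higher in the diabetic array, with medians of 0.66 and 0.75, and all 4 atrial markers with 1.18. Their part in the result was not tested, and in that pair diabetes cannot be told apart from the labelled age.

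The members differed in how alike their courses over the 12 arrays were. Pearson r, given as a description over arrays that share the time course and the day 28 pair, was 0.95 for Fbn1 with Eln and for Fbn1 with Ltbp2. It was 0.94 for Bgn with Lum, and 0.93 for Bgn with Mfap4 and for Lum with Mfap4. Bgn was also close to the microfibril genes, at 0.90 with Ltbp2, 0.89 with Eln and 0.85 with Fbn1. Mfap4 had 0.77 with Eln and 0.66 with Fbn1. Over the 10 arrays without the day 28 pair, Fbn1 had 0.94 with Eln and with Ltbp2, Bgn had 0.93 with Lum and 0.94 with Mfap4, and Fbn1 had 0.64 with Mfap4. Dcn had r from -0.22 to 0.28 with the 9 others. With the mean of the 10 standardised profiles, r was 0.97 for Bgn, 0.93 for Ltbp2, 0.90 for Lum, 0.65 for Comp, 0.55 for Fmod and 0.17 for Dcn, each gene being part of that mean.

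Of the 10623 genes tested, the 5 outside the set with the profile most like that mean were Tgfb3, a TGF-beta ligand, Ccdc80, a secreted matrix protein, Mmp2, a gelatinase, Plxdc2, a membrane protein with a plexin domain, and Col8a2, a chain of type VIII collagen. Their r over the 12 arrays was 0.980, 0.977, 0.973, 0.973 and 0.969. Over the 10 arrays without the day 28 pair they had 0.967, 0.976, 0.977, 0.977 and 0.962, and the 5 most alike were then Mmp2, Thbs3, Plxdc2, Ccdc80 and Clec3b. Tgfb3 read 7.48 and 7.41 in sham, 8.46 and 8.30 on day 7, and 8.90 and 7.20 in the day 28 pair, the non-diabetic array first. Col8a2 read 5.94 and 5.84 in sham, 8.07 and 8.23 on day 7, and 8.65 and 5.25 in the day 28 pair. Both Tgfb3 and Col8a2 have their highest non-diabetic level on day 28 and their highest diabetic level on day 14, whereas Ccdc80 is highest on day 7 in non-diabetic and Plxdc2 on day 7 in diabetic arrays.

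**Figure D4:**
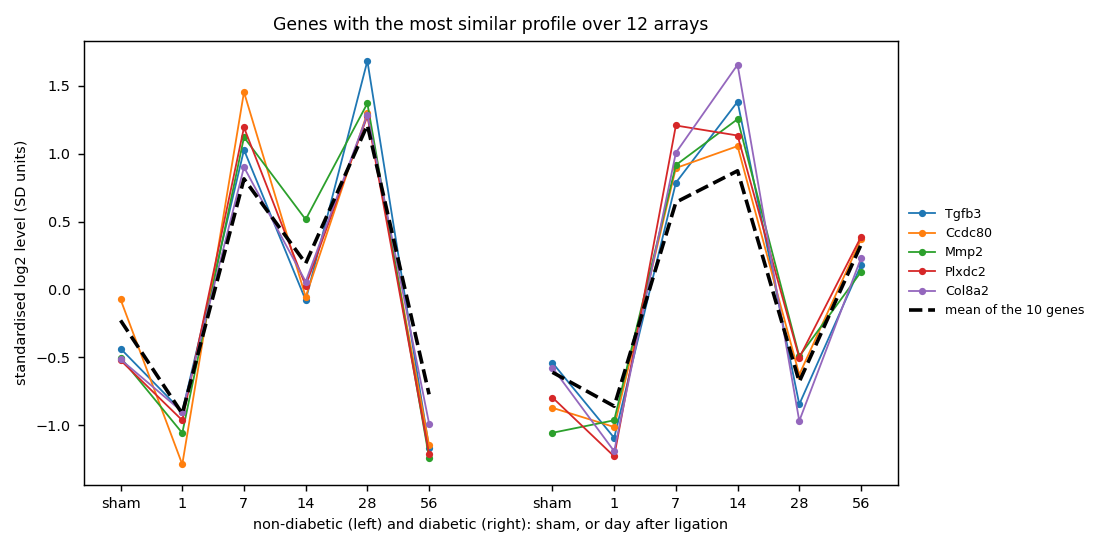
Standardised log2 level, in SD units over the 12 arrays, of the 5 genes outside the set with the profile most like the 10 genes, with the mean of the 10 as a dashed line, non-diabetic arrays on the left and diabetic arrays on the right. The dashed line peaks on day 28 in non-diabetic and on day 14 in diabetic arrays, and the 5 genes run close to it, with r of 0.969 to 0.980.

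Other genes of these pathways were counted in lists. Of 14 other small leucine-rich proteoglycans 8 were measured above the filter. On day 1, 0 of the 8 lay above sham, with a median change of -1.10, and 3 were called lower, Aspn at -2.27, Ecm2 at -1.93 and Chadl at -0.99. On day 7, 1 was called higher, Aspn, asporin, at 1.78 with a limma adjusted p of 0.043, and 1 lower, Chadl at -1.16. Ecm2 and Chadl were named after their values were seen. Ogn, osteoglycin, did not pass, with -1.64 on day 1 and 0.15 on day 7, nor did Prelp, with -0.54 on day 1.

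Of 21 other elastic fibre and microfibril genes 18 were tested, and on day 7, 16 of them lay above sham, with a median of 0.60. On that day 3 were called higher, Loxl1 at 2.87, a lysyl oxidase-like enzyme that cross-links elastin, Lox at 3.41, the lysyl oxidase of collagen and elastin, and Adamtsl2 at 1.81, a fibrillin-binding protein. On day 1, 2 were called lower, Ltbp4 at -1.19, which aids elastin deposition, and Efemp1, a fibulin, at -1.85. Fbln2, another fibulin, had 1.58 on day 7 and did not pass, with an adjusted p of 0.089. Lox, Adamtsl2 and Efemp1 were named after their values were seen. Of 3 other thrombospondins tested, 1 was called higher on day 7, Thbs2 at 1.42, while Thbs4 at 1.65 and Thbs3 at 0.99 did not pass.

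Fibrillar collagens, which the proteoglycans coat, were tested as a further list. Of 9 genes tested 7 were called higher on day 7 and 1 lower, with a median of 2.21, and on day 1 none was called. Col1a1 was higher by 3.74 ± 0.60, Col1a2 by 2.98 ± 0.49 and Col3a1 by 2.01 ± 0.52 on day 7, and the lower gene was Col11a2 at -0.63, named after its values were seen. The genes that build glycosaminoglycan chains had a median of 0.15 on day 7, with 1 of 13 called higher, Dsel, an epimerase relative, at 1.12, named after its value was seen. Chsy1, a chondroitin synthase, had 0.35, Csgalnact2 0.57 and B3gat3 -0.13, none past the test. Of 5 large proteoglycans and links tested, Vcan, versican, was called higher on both days, at 2.46 on day 1 and 2.21 on day 7, and Hspg2, perlecan, at -0.31 and 0.07, and Hapln3, at -0.38 and -0.51, were not.

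Of 12 genes of TGF-beta signalling tested, 0 were called on day 7 in limma, with a median of 0.35, and 1 on day 1, Tgfb2 at 2.83, named after its value was seen. Eng, a co-receptor, had -0.32 on day 7, Skil, an inhibitor of SMAD signalling, 0.40 and Smad4 0.29. For diabetes no gene of these 7 lists was called, with limma, and the list medians ran from -0.21 for fibrillar collagens to 0.08 for large proteoglycans, against -0.01 for all genes tested.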

How the data were processed

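Gene expression was measured in 12 pooled myocardial RNA samples on Affymetrix rat arrays. The authors deposited 1 linear intensity per probe set and array, made with Affymetrix Expression Console and PLIER per the submitters' processing notes. For both tools the version, and for the values any background correction or scaling, were not given in the sources used here. Every value column was mapped to a sample by its label, and groups came from the labels. The tissue label of the sham arrays speaks of an infarct, and their protocol of a sham operation, which was followed.

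After 57 of 31099 probe sets were left out as controls, intensities were taken as log2(intensity + 16) with no further scaling. The 18625 probe sets with a mean above the 40th percentile, 5.20, were tested. A limma 3.58.1 model in R 4.3.3 with time point (6 levels) and diabetes left 5 residual degrees of freedom. Variances were drawn toward a trend on the mean over all probe sets. Benjamini-Hochberg adjustment ran over all 18625 p-values, with a threshold of 0.05, and errors are standard errors of that model. The limma fit was tested on simulated data, for the diabetes and day 7 comparisons only. Alternatives were the offset, 2 scalings, the filter, the variance trend, the mean of a gene's probe sets, and leaving out each array or pair. The fit of the single days without the day 28 pair was chosen after seeing the data.

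All 10 genes are named, with 3 genes per list by highest mean level, and the 5 most similar genes by Pearson r. The members and lists were chosen with earlier results of these data known. Promoters and gene order came from RefSeq tables of GRCr8, matched by symbol.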

Additional observations from a re-analysis of the deposited data

Results flagged for a closer look

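The diabetic minus non-diabetic difference of Fbn1 in the day 28 pair, at -2.93 on the log2 scale, stood apart from the 5 other pairs, which lay between -0.34 and 1.00. Its gap to the nearest other pair was 0.661 of the whole range, above Dixon's 95% critical value for 6 values. This flag holds for the brighter Fbn1 probe set only. The other Fbn1 probe set had -2.49 in that pair, against -0.59 to 1.11 in the other pairs, and was not put to Dixon's test. Chance gives about 1 such case in 20, and 10 genes were looked at. For 7 of the 9 other genes the day 28 pair was also the pair farthest from the rest, with a gap of 0.357 to 0.573 of the range, below the critical value. The cause was not tested.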

How the results depend on the processing

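Of 2110 single-gene values under the alternatives 1883 kept their direction and side of the threshold. A further 57 passed only under the alternative, and 21 no longer passed. Another 149 changed direction but passed in neither fit, and no called value changed sign. The count of genes called on day 1, 1 as reported, was 2 with quantile normalization, with array medians set equal, with no filter and without the day 28 pair, and 0 to 2 with 1 array left out. On day 7, 2 as reported, it was 3 with no filter and with the mean of a gene's probe sets, 7 without the day 28 pair and 0 to 7 with 1 array left out. Day 14 gave 3 without the day 28 pair and 0 to 3 with 1 array left out, and day 28 gave 0 to 2 with 1 array left out. The mean of the 5 days gave 0 to 3 with 1 array left out, and the mean of the days left without the day 28 pair gave 3. The slope, 2 as reported, gave 3 with quantile normalization and with array medians set equal, 4 without that pair and 1 to 6 with 1 array left out. For diabetes and both interactions the count was 0 in every alternative run. In each case of a moved count the cause was not tested. Fewer arrays enter the fit when some are left out. Without the day 28 pair the fitted day 7 changes stayed the same. Their standard errors fell, from 0.97 to 0.51 for Ltbp2 and from 0.67 to 0.31 for Fbn1. Comp was not tested with an offset of 1 or a filter at the 60th percentile, since it then lay below the filter. The median change of all probe sets on day 7 was 0.15 without scaling and -0.03 with quantile normalization, and the calls of Ltbp2 and Fbn1 held in both. The reported model pairs the diabetic and non-diabetic arrays by time point, and the labels give no replicate numbers for a further block. A pool of 3 rats on 1 array gives no spread between rats, and the number of arrays limits the precision.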
